A study of Rattus norvegicus with 48 samples.

Results

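Messenger RNA levels of 8 rat genes for enzymes that oxidise alcohols and aldehydes were to be compared between control liver and chemically induced nodules, adenomas and carcinomas. The genes were taken from a list of enzymes (Aldh1a1, Aldh2, Aldh3a1, Aldh3a2, Aldh6a1, Aox3, Adh1 and Adh4) and were kept when the array table held a probe with that symbol, the brightest probe standing for the gene. A probe was found for 7 of the 8, among 13337 genes with a probe in all, and all 7 were among the 9273 genes tested. Aldh2 was not analysed here. The probe for Adh1 is listed as Adh1c, of which Adh1 is a RefSeq synonym.

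The samples were laser-captured pieces of frozen liver from male F-344 rats, 1 Illumina array each, 48 in all. They comprised 10 nodules labelled KRT19-positive and 10 labelled KRT19-negative (10 weeks after initiation by diethylnitrosamine, DENA), 4 adenomas and 5 early carcinomas (eHCC) at 10 months, 9 advanced carcinomas (aHCC) at 14 months, and 10 control livers. In the protocol, DENA at 150 mg/kg was given by injection, and after 2 weeks of recovery the rats ate 0.02% 2-acetylaminofluorene for 1 week before and 1 week after a partial hepatectomy. The same text stands on every sample, controls included, so what the control rats received, and their age, are unknown here. All lesion groups share the carcinogen, the diet and the surgery, and no group is lesion-free liver labelled as treated. Lesions may share an animal, the labels do not tie them to animals, and p-values over lesions may therefore be too small.

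Primary alcohols are oxidised in the liver to aldehydes by alcohol dehydrogenases, and the aldehydes are oxidised to acids by aldehyde dehydrogenases, both with NAD+ or NADP+ as acceptor. Aldehyde oxidases do the same for some aldehydes and many heterocyclic drugs, with molecular oxygen as acceptor and a molybdenum cofactor in the active site. Besides ethanol, the substrates include retinol and retinal, aldehydes from lipid peroxidation, and an intermediate of valine breakdown. In rat liver, Aldh3a1 is best known as a gene that is nearly silent in normal hepatocytes, is inducible through the aryl hydrocarbon receptor and was described in hepatomas.

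Of the 7 enzymes, Aldh1a1, Aldh3a1 and Adh1 were higher and Aox3 was lower in adenomas, eHCC and aHCC than in control liver. Aldh3a2 was lower in the carcinomas and lowest in aHCC. Adh4 and Aldh6a1 passed the test in none of the comparisons. In the nodules Aldh1a1, Aldh3a1, Adh1 and Aox3 differed between 2 sets of 10 that the KRT19 labels do not separate but the Krt19 transcript does.

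The promoters of 4 of the genes on which these results turn are shown so that they can be compared in the letters just before their start sites. They are the 250 bases before the RefSeq transcription start in assembly GRCr8, written 5′ to 3′ on the strand of the gene. Capitals mark matches to the motifs searched on both strands: TGACNNNGC (the core of the antioxidant response element), GCGTG (the core of the xenobiotic response element), TATAAA and CCAAT. RefSeq entries were matched for 6 of the 7 measured enzymes, all but Aldh3a1, whose promoter was not searched.
Aldh1a1, chr1:227537370-227537619, plus strand: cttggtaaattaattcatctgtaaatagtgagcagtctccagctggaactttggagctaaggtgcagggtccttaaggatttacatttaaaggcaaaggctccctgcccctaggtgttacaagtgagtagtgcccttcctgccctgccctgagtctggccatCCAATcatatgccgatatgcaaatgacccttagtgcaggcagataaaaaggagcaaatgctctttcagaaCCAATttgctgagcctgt
Aldh3a2, chr10:46448336-46448585, minus strand: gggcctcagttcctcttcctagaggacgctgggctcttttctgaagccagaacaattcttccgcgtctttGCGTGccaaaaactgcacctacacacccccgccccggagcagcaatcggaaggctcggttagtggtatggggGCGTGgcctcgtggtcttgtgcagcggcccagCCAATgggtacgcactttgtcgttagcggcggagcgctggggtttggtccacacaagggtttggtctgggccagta
Aox3, chr9:67158750-67158999, plus strand: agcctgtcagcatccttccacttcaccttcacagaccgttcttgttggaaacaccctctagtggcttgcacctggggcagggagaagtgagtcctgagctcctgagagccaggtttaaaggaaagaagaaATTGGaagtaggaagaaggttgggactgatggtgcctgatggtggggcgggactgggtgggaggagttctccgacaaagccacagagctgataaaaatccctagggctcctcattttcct
Adh1, chr2:229470453-229470702, plus strand: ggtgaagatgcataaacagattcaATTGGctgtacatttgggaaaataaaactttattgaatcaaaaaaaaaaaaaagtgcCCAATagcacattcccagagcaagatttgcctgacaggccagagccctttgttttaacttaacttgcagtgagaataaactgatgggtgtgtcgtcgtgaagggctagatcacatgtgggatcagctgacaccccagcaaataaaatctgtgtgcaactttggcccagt
CCAAT was found 88 and 18 bases before the start of Aldh1a1, and 76 bases before that of Aldh3a2. It lies 169 bases before the start of Adh1, with the opposite-strand form ATTGG at 226, and as ATTGG 120 bases before the start of Aox3. CCAAT in either orientation occurs in 34% of all 33469 promoter windows of this length. Among the 6 windows searched, GCGTG was found in that of Aldh3a2 alone, at 180 and 108 bases before the start, against 25.9% of all windows. TGACNNNGC was in none of the 6, against 10.1% of all windows, which says only that these letters are not in these 250 bases. TATAAA was matched, as TTTATA, in the Adh4 window alone, against 12.9% of all windows. In the RefSeq gene order of GRCr8, Aldh3a1 and Aldh3a2 lie on chromosome 10 with 0 protein-coding genes between them, and Adh1 and Adh4 lie on chromosome 2 with 2 between them.

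All values below are log2 of the deposited intensity, which had been equalised between arrays (array medians of 159.0 to 159.6) with background left in. The scale ran from 6.6 to 15.54, so dim genes are compressed at the lower end and bright ones at the upper end. The number of arrays, not read depth, limits precision; between 8323 and 11434 of 22523 probes were detected per array at a detection p under 0.05. Differences were tested with limma over 13479 features, with Benjamini-Hochberg adjustment in each comparison, and a gene was called at an adjusted p under 0.05. Errors of differences are standard errors (SE).

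The Krt19 transcript, a bile duct and progenitor keratin, goes against the label in samples 15 to 24. It was 11.49 to 13.15 in nodules 1 to 5 (labelled KRT19-positive) and 15 to 19 (labelled KRT19-negative), together called Krt19-high here. It was 7.69 to 10.60 in nodules 6 to 10 (labelled negative) and 20 to 24 (labelled positive), called Krt19-low, against 7.38 to 8.76 in control liver. These sets follow sample numbers and were drawn up with the Krt19 values known. Statistically, Krt19-high against Krt19-low is the label difference in samples 1 to 10 set against that in samples 15 to 24. The labelled groups themselves did not separate any gene, with 0% of all features and 0 of the 7 enzymes called by limma between nodules labelled KRT19-positive and KRT19-negative, and 0 of the 7 had an unadjusted p under 0.05.

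Aldh1a1, the cytosolic enzyme that oxidises retinal to retinoic acid, was far brighter in the lesions. Krt19-high nodules ran from 14.70 to 15.19 (median 14.92) and Krt19-low nodules from 12.34 to 14.67 (median 14.17). The adenomas stood at 15.23, 15.41, 15.26 and 14.97, the eHCC at 15.05, 15.54, 15.35, 14.97 and 15.34, and the aHCC between 13.87 and 15.42 (median 14.97), against 10.48 to 13.71 (median 12.33) in control liver. Apart from 3 of the Krt19-low nodules, all lesions, 35 of 38, lay above the brightest control. The increase over control was 2.72 ± 0.29 in Krt19-high nodules (adjusted p = 3.05e-10), 1.73 ± 0.29 in Krt19-low nodules (adjusted p = 3.62e-05), 2.96 ± 0.42 in adenomas (adjusted p = 1.08e-06), 2.99 ± 0.39 in eHCC (adjusted p = 9.68e-08) and 2.50 ± 0.33 in aHCC (adjusted p = 6.19e-08). These are 6.59-, 3.31-, 7.78-, 7.97- and 5.65-fold. In 15 arrays, all from lesions, the probe was within 0.5 of the top of the scale.

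The size of the Aldh1a1 difference depended on which controls were used. Controls 11 to 14 averaged 11.19 ± 0.57 (SD, n = 4), controls 25 to 27 averaged 13.33 ± 0.64 (SD, n = 3), and controls 46 to 48 averaged 12.60 ± 0.48 (SD, n = 3). The first of these sets lay wholly below the others. Against controls with neighbouring numbers, Krt19-high nodules differed by 3.81 in samples 1 to 14 and by 1.62 in samples 15 to 27, and Krt19-low nodules by 2.72 and 0.72, all called (adjusted p between 1.58e-06 and 0.0494). Without controls 11 to 14 the Krt19-low difference was 1.02 (adjusted p = 0.00731). No label says whether the number sets are batches. The probe may also read the near-identical paralog Aldh1a7, which was not used here.

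Aldh3a1, which oxidises aromatic and medium-chain aldehydes, was detected in most lesions and in none of the control livers. A signal was detected in all 10 Krt19-high nodules, at 8.02 to 10.71 (median 8.73), in 3 of 10 Krt19-low nodules, at 6.77 to 8.15 (median 7.11), and in all adenomas, at 9.32, 9.07, 9.24 and 9.65. The eHCC had the highest mean, with 9.38, 10.61, 9.82, 10.06 and 11.48, and the aHCC were widely spread, from 7.16 to 11.77 (median 8.76), with 8 of 9 detected, against 6.78 to 7.19 (median 6.93) and 0 of 10 detected in control liver. Krt19-high nodules, adenomas and eHCC lay entirely above the controls, whereas the Krt19-low nodules and 1 aHCC overlapped them. Because no control was above background, folds are lower bounds, taken against the dimmest detected probe of each control array, or the gene's own value where that was higher: at least 2.88-fold higher in Krt19-high nodules, 3.68-fold in adenomas, 7.10-fold in eHCC and 2.58-fold in aHCC. The fitted differences were 1.99 ± 0.35 (adjusted p = 1.26e-05), 2.34 ± 0.57 (adjusted p = 0.00146), 3.29 ± 0.52 (adjusted p = 3.24e-06) and 1.83 ± 0.44 (adjusted p = 0.000835) in that order of groups. In Krt19-low nodules the difference was 0.28 ± 0.35 (95% interval -0.43 to 0.99, adjusted p = 0.701).

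The highest Aldh3a1 value of any array was that of aHCC sample 29, at 11.77, while the other aHCC were at or below 9.57. Between aHCC and eHCC the difference was -1.46 ± 0.53 with an adjusted p of 0.0548. Without sample 29 it was -1.83 (adjusted p = 0.00408), and the aHCC difference from control was 1.46 (adjusted p = 0.00261). After background correction by detection p (neqc) the fitted values were 3.76 in Krt19-high nodules, 5.40 in eHCC and 3.28 in aHCC; with undetected controls these depend on the background subtracted and are not measured folds.

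Aldh3a2, the fatty aldehyde dehydrogenase of the endoplasmic reticulum and Aldh3a1's neighbour on the chromosome, did not follow Aldh3a1. It was bright and even in nodules, at 13.11 to 13.87 (median 13.42) in the Krt19-high and 13.11 to 13.68 (median 13.37) in the Krt19-low set, against 13.06 to 13.73 (median 13.34) in control liver. The adenomas were at 13.11, 13.17, 13.09 and 13.06 and the eHCC at 12.73, 12.39, 13.23, 13.11 and 13.07. The aHCC fell to 11.27 to 12.58 (median 12.33), and all 9 lay below every control and every Krt19-high nodule. The difference from control was -1.19 ± 0.13 in aHCC (2.29-fold lower, adjusted p = 1.13e-09) and -0.47 ± 0.16 in eHCC (adjusted p = 0.0171). It was -0.26 in adenomas (95% interval -0.60 to 0.07), 0.08 in Krt19-high nodules (-0.18 to 0.34) and 0.00 in Krt19-low nodules (-0.26 to 0.26), none of them called.

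Aldh3a2 was the only one of the 7 enzymes called between aHCC and eHCC, at -0.73 ± 0.16 (1.66-fold lower, adjusted p = 0.00114), where 15.8% of all features were called, 7.37% higher and 8.46% lower. The eHCC call depended on samples 38 and 39: without sample 39 it was -0.34 (adjusted p = 0.128), without sample 38 it was -0.42 (adjusted p = 0.0520), and without controls 11 to 14 it was -0.32 (adjusted p = 0.165). A second Aldh3a2 probe was detected in 11 of 48 arrays and differed by -0.07 between aHCC and control, but it averaged close to background in both groups and could not have shown a decrease. Averaging the 2 probes gave -0.63 in aHCC (adjusted p = 5.33e-09).

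Aldh6a1, the mitochondrial methylmalonate semialdehyde dehydrogenase of valine catabolism, was detected in 4 of 48 arrays and stayed between 6.92 and 7.52. No level can be compared for it at this signal. The largest of its differences from control was -0.19 in adenomas (adjusted p = 0.0914).

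Aox3, an aldehyde oxidase, was lower in every lesion group. Krt19-high nodules were at 7.34 to 8.69 (median 7.71), Krt19-low nodules at 7.10 to 10.26 (median 8.50), adenomas at 7.63, 7.29, 7.47 and 8.49, eHCC at 7.27, 7.25, 7.19, 7.83 and 7.19, and aHCC at 7.15 to 7.77 (median 7.21), against 10.20 to 11.51 (median 11.07) in control liver. Of 38 lesions, 37 were below every control, the exception being Krt19-low nodule 8 at 10.26. The decrease was 9.34-fold in Krt19-high nodules (-3.22 ± 0.22, adjusted p = 1.27e-15) and 5.40-fold in Krt19-low nodules (-2.43 ± 0.22, adjusted p = 3.21e-11). It was 9.62-fold in adenomas (-3.27 ± 0.33, adjusted p = 6.25e-10), and the fitted difference was -3.64 ± 0.31 in eHCC (adjusted p = 1.79e-12) and -3.58 ± 0.26 in aHCC (adjusted p = 1.77e-14). Only 1 of 5 eHCC and 4 of 9 aHCC had a detected signal, so no fold is given there, and the eHCC value depends on the background subtracted (-5.51 with neqc).

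The gene next to Aox3 did the opposite. Aox1, another aldehyde oxidase, lies on chromosome 9 with 0 protein-coding genes between it and Aox3 in the RefSeq order, and was higher in every lesion group. Its mean was 15.09 ± 0.20 in Krt19-high nodules, 14.42 ± 0.42 in Krt19-low nodules (SD, n = 10 each), 15.38 ± 0.06 in adenomas (SD, n = 4), 15.37 ± 0.11 in eHCC (SD, n = 5) and 14.39 ± 0.41 in aHCC (SD, n = 9), against 13.39 ± 0.28 in control liver (SD, n = 10). The increase was 1.70, 1.03, 1.99, 1.98 and 1.00 in that order of lesion groups, with adjusted p between 3.74e-14 and 8.30e-06. In Krt19-high nodules, adenomas and eHCC the mean of the Aox1 probe was within 0.5 of the top of the scale. The levels of the 2 probes cannot be set against each other, so which oxidase was the more abundant is not known from these arrays.

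Adh1, the main ethanol and retinol oxidising alcohol dehydrogenase of rat liver, was among the brightest probes. Krt19-high nodules were at 14.87 to 15.36 (median 15.05), Krt19-low nodules at 13.02 to 14.75 (median 14.10), adenomas at 15.22, 15.25, 14.85 and 14.97, eHCC at 15.15, 14.91, 15.23, 15.23 and 15.27, and aHCC at 13.75 to 14.99 (median 14.76), against 13.06 to 14.16 (median 13.81) in control liver. Krt19-high nodules, adenomas and eHCC did not overlap the controls, and 8 of 9 aHCC were above them. The increase was 1.46 ± 0.16 in Krt19-high nodules (2.74-fold, adjusted p = 6.58e-10), 1.43 ± 0.28 in adenomas (adjusted p = 0.000131), 1.52 ± 0.26 in eHCC (adjusted p = 1.18e-05) and 0.99 ± 0.22 in aHCC (1.99-fold, adjusted p = 0.000306). In 11 arrays the probe was within 0.5 of the top of the scale.

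The smaller Adh1 difference of Krt19-low nodules, 0.49 ± 0.16 (adjusted p = 0.0432), rested on controls 11 to 14, which averaged 13.18 ± 0.23 (SD, n = 4) against 14.00 ± 0.20 and 13.90 ± 0.05 (SD, n = 3 each) in the other control sets. Without them it was 0.18 (adjusted p = 0.583), and within samples 15 to 27 it was 0.22 (adjusted p = 0.298). The call was also lost without any of 9 single arrays.

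Adh4, an alcohol dehydrogenase with high activity towards retinol and larger alcohols, was called in none of the comparisons. It lay at 7.96 to 8.63 (median 8.39) in Krt19-high nodules, 8.29 to 9.15 (median 8.54) in Krt19-low nodules, 7.89 to 8.61 in adenomas, 7.77 to 8.84 in eHCC and 7.57 to 9.22 (median 8.80) in aHCC, against 7.96 to 9.48 (median 8.26) in control liver. The groups overlapped widely. The difference from control was -0.06 in Krt19-high nodules (95% interval -0.37 to 0.26), 0.21 in Krt19-low nodules (-0.10 to 0.52), -0.08 in adenomas (-0.52 to 0.36), -0.03 in eHCC (-0.44 to 0.38) and 0.31 in aHCC (-0.03 to 0.65). In Krt19-high nodules its sign differed between number ranges: 0.39 within samples 1 to 14 (adjusted p = 0.0365) and -0.71 within samples 15 to 27 (adjusted p = 0.00503). Nodules 1 to 5 averaged 8.56 and nodules 15 to 19 averaged 8.15, while controls 11 to 14 averaged 8.17 and controls 25 to 27 averaged 8.86. The part of either side was not tested. In aHCC the difference from control was 0.45 without sample 29 (adjusted p = 0.0156) and 0.43 without control 27 (adjusted p = 0.0290).

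**Figure D1:**
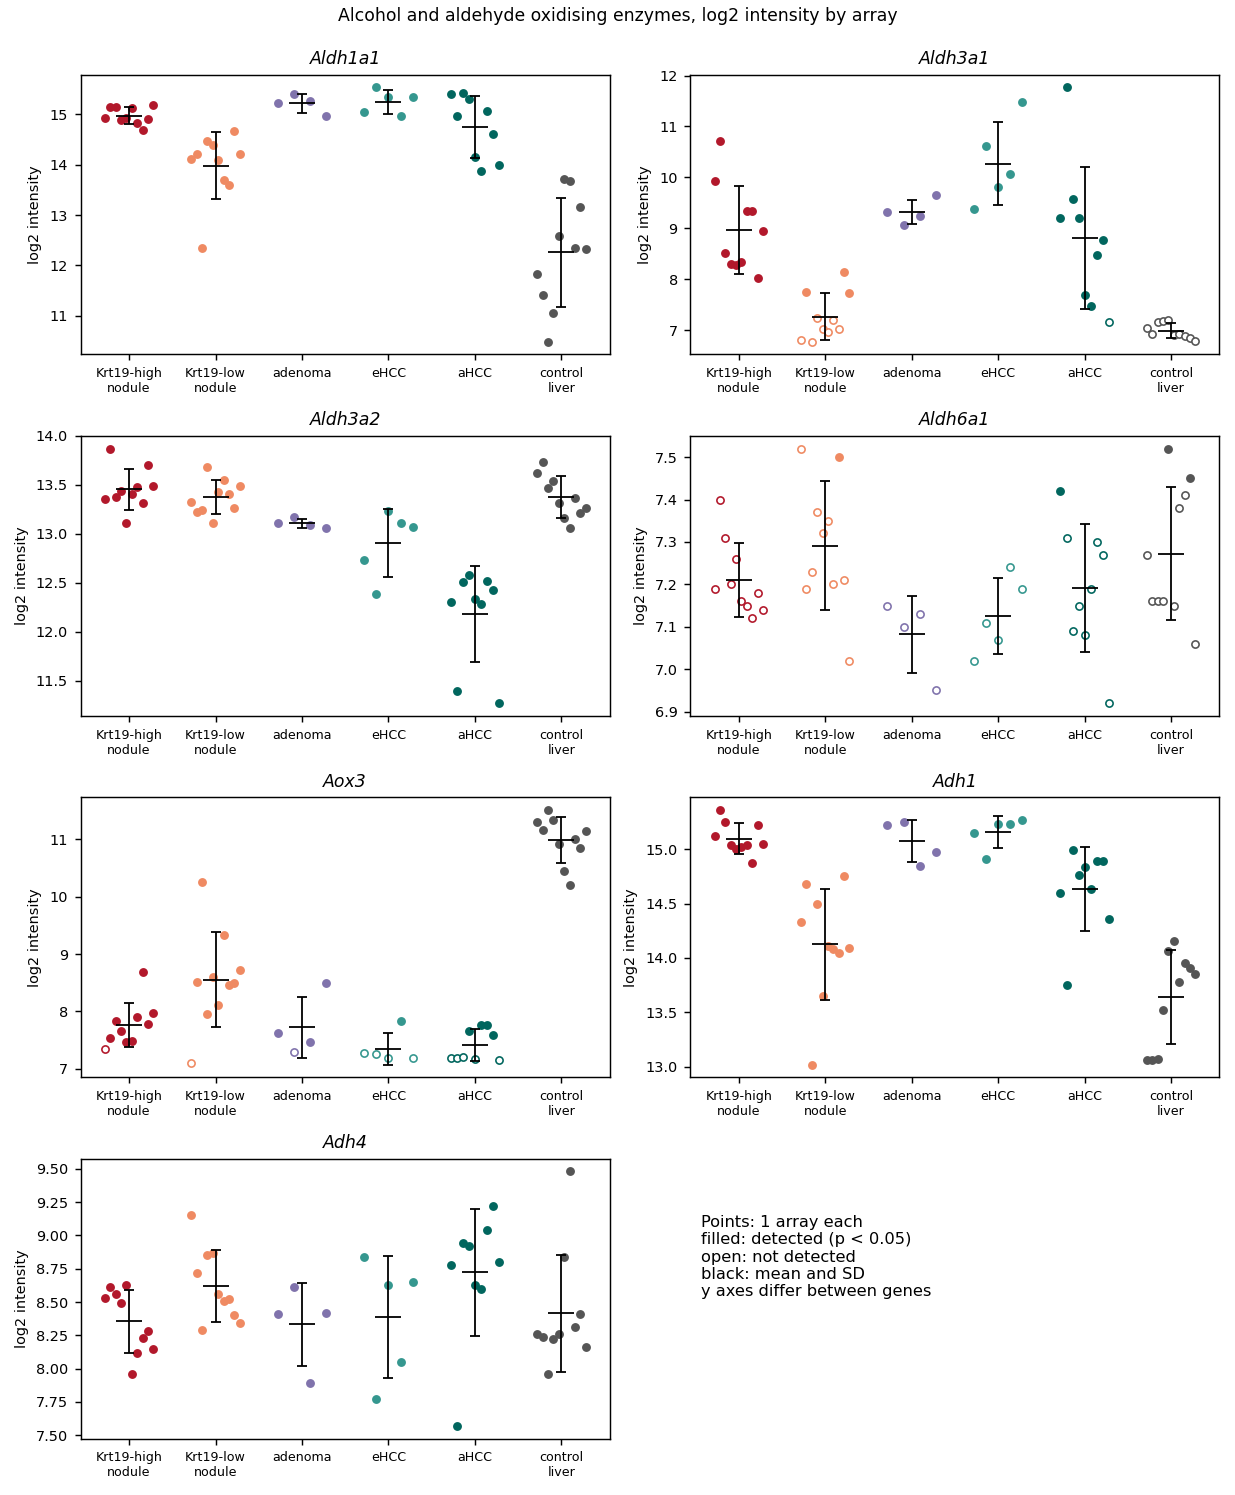
Log2 intensity of the 7 enzymes in each array (y axis, scaled per gene), by group from Krt19-high nodules to control liver (x axis); filled points are detected, open points are not, and black bars give mean and SD. Aox3 falls in all lesion groups, Aldh1a1 and Adh1 approach the top of the scale at 15.54, and Aldh3a2 is lower in the carcinomas, most in aHCC.

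Counted over the 7 enzymes, 3 were called higher and 1 lower than control in Krt19-high nodules (34.6% of all features called, 17.4% higher and 17.2% lower), and 2 higher and 1 lower in Krt19-low nodules (10.3% of features called, 5.28% higher and 5.07% lower). The count was 3 higher and 1 lower in adenomas (26% of features, 13.5% higher and 12.6% lower), 3 higher and 2 lower in eHCC (32.2%, 17% higher and 15.1% lower), and 3 higher and 2 lower in aHCC (38%, 19.2% higher and 18.8% lower). By label, nodules called KRT19-positive had 3 higher and 1 lower (18.7% of features, 9.69% higher and 8.98% lower) and those called KRT19-negative 2 higher and 1 lower (19.5%, 9.83% higher and 9.7% lower). Both labelled sets mix Krt19-high with Krt19-low nodules, and in samples 15 to 27 alone the counts were 2 in total for the positive and 6 for the negative label. The shares above come from all arrays. No share of all features is given here for samples 15 to 27, so these counts cannot be set against it. The median difference over the 7 enzymes was 0.08 in Krt19-high nodules and 0.21 in Krt19-low nodules. It was -0.08 in adenomas, -0.03 in eHCC and 0.31 in aHCC, against -0.01 to 0.00 over all features in these groups. The comparisons with control share the same 10 control arrays.

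**Figure D2:**
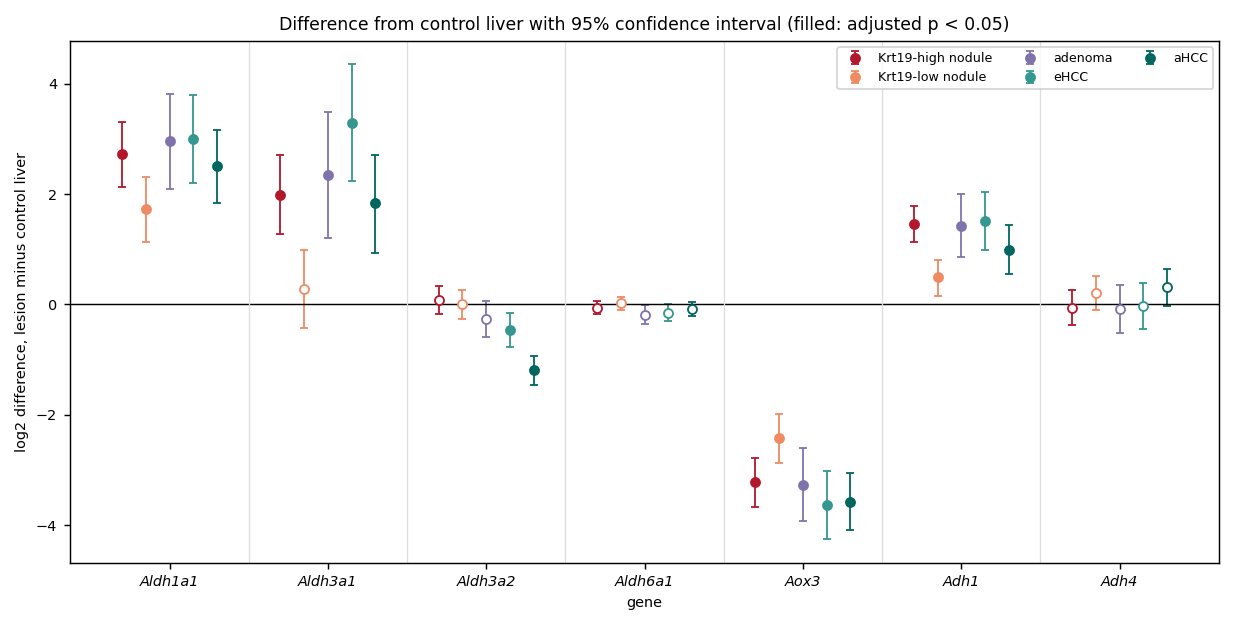
Difference in log2 intensity between each lesion group and control liver (y axis) for the 7 enzymes (x axis), with 95% confidence intervals; filled points passed an adjusted p of 0.05. Aox3 lies between -2.43 and -3.64 in all 5 lesion groups, and Aldh3a2 moves from 0.08 in Krt19-high nodules to -1.19 in aHCC.

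Between the nodule sets, 4 of the 7 enzymes differed, 3 higher and 1 lower in Krt19-high nodules, where 19.2% of all features were called, 10.2% higher and 9.01% lower. Adh1 was higher by 0.97 ± 0.16 (1.96-fold, adjusted p = 1.78e-05) and Aldh1a1 by 0.99 ± 0.29 (1.99-fold, adjusted p = 0.0118), and for both all 10 Krt19-high nodules lay above all 10 Krt19-low nodules. Aldh3a1 was higher by 1.71 ± 0.35 (adjusted p = 0.000375), with 9 of 10 above the highest Krt19-low nodule; only 3 of 10 Krt19-low nodules had a detected signal, so no fold is given. Aox3 was lower, at -0.79 ± 0.22 (1.73-fold, adjusted p = 0.00825), with overlapping sets.

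The difference appeared on both sides of the labels. In samples 1 to 5, labelled KRT19-positive, Aldh3a1 averaged 9.15 ± 1.11, against 7.11 ± 0.40 in samples 6 to 10, labelled KRT19-negative (SD, n = 5 each). In samples 20 to 24, labelled KRT19-positive, it averaged 7.41 ± 0.51, against 8.79 ± 0.59 in samples 15 to 19, labelled KRT19-negative. So the library label with the higher value was opposite in the 2 number ranges. Adh1 did the same, at 15.15 ± 0.15 against 14.04 ± 0.69 in samples 1 to 10 and 14.22 ± 0.30 against 15.04 ± 0.12 in samples 15 to 24, and so did Aldh1a1, at 15.00 ± 0.13 against 13.91 ± 0.89 and 14.05 ± 0.44 against 14.95 ± 0.21 (all SD, n = 5). Taken alone, the label difference called 2 enzymes higher in samples 1 to 10 (7.77% of features called, 4.22% higher and 3.55% lower), Aldh3a1 at 2.03 ± 0.50 (adjusted p = 0.00645) and Adh1 at 1.12 ± 0.23 (adjusted p = 0.00113). In samples 15 to 24 it called 1 lower (6.34% of features, 2.7% higher and 3.64% lower), Adh1 at -0.82 ± 0.23 (adjusted p = 0.0199).

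**Figure D3:**
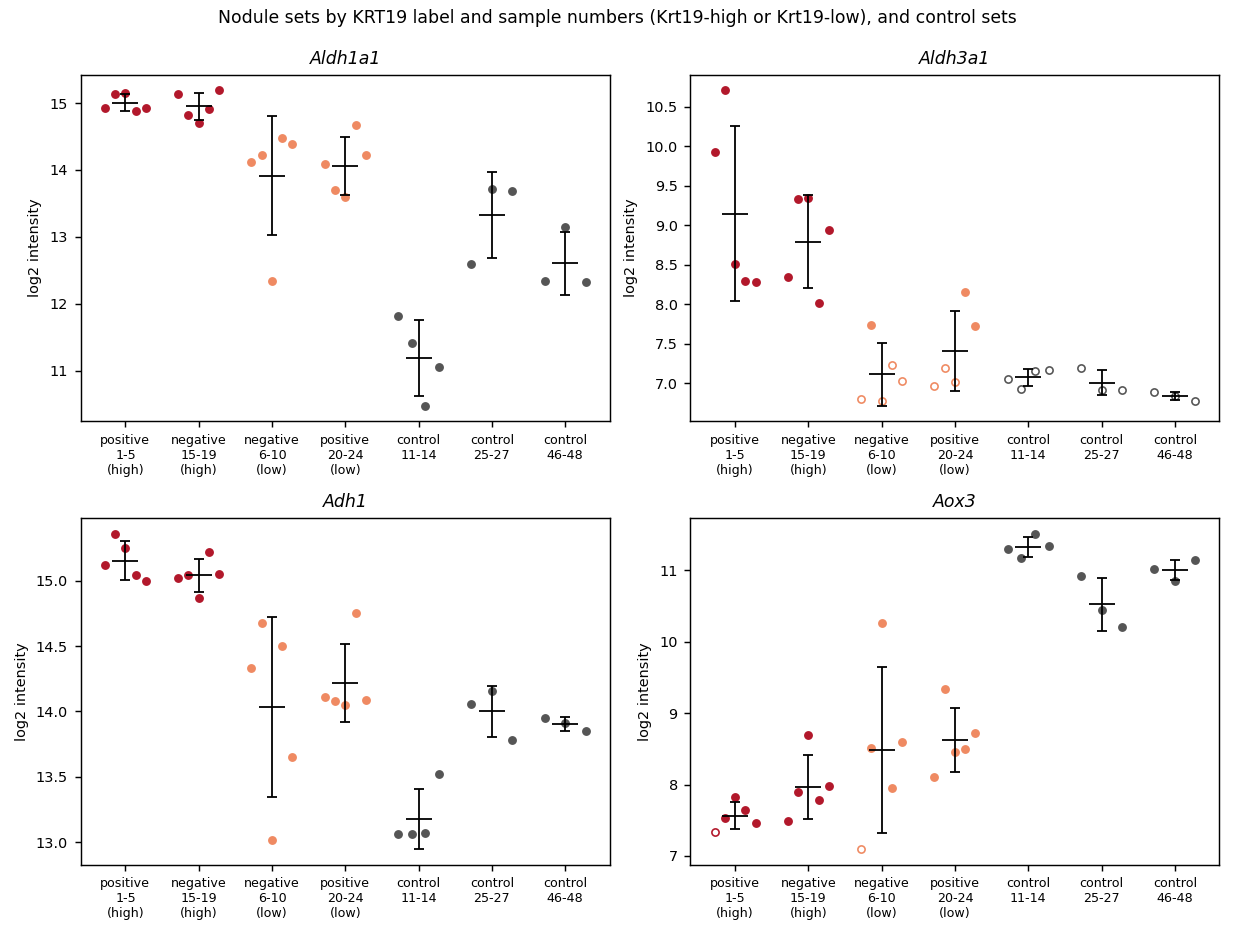
Log2 intensity (y axis) of Aldh1a1, Aldh3a1, Adh1 and Aox3 in the 4 sets of 5 nodules and the 3 sets of controls (x axis, KRT19 label and sample numbers), filled where detected, with mean and SD in black. The sets of nodules 1 to 5 and 15 to 19 resemble each other although their labels differ, and the control sets differ among themselves, Aldh1a1 averaging 11.19, 13.33 and 12.60.

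Krt19-low nodule 8 stood apart from its set, at 12.34 for Aldh1a1, 13.02 for Adh1 and 10.26 for Aox3, the Aldh1a1 and Aox3 values inside the control range and the Adh1 value just below it. Without it the 4 differences between the nodule sets were still called, at 0.80 for Aldh1a1 (adjusted p = 0.0409), 1.67 for Aldh3a1, 0.84 for Adh1 and -0.57 for Aox3 (adjusted p = 0.0254). Within samples 1 to 14 the Aox3 difference was -0.93 (adjusted p = 0.138), and within samples 15 to 27 it was -0.65 (adjusted p = 0.0497).

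Some biliary and stromal markers were higher with this split and in the later lesions. Without Krt19, on which the split rests, 5 biliary and progenitor markers were tested of 9 listed. Their summed intensity was 5440 to 8290 in Krt19-high nodules, 1240 to 4280 in Krt19-low nodules, 3360 to 15200 in adenomas, 2840 to 15900 in eHCC and 1720 to 5570 in aHCC, against 1050 to 1610 in control liver. Of the 5, 2 were called higher in Krt19-high than in Krt19-low nodules, and 2 in adenomas, 3 in eHCC and 3 in aHCC than in control liver. The median difference of the 5 between the nodule sets was 0.33. Prom1, a progenitor marker of the list, was detected in 0 control arrays, and Krt7, a biliary marker of the list, in 0 adenomas. The sum of 7 stromal markers was 8470 to 17800 in Krt19-high nodules, 4310 to 10200 in Krt19-low nodules, 7370 to 29700 in adenomas, 7090 to 30700 in eHCC and 6180 to 13100 in aHCC, against 3490 to 6290 in control liver. Of these, 4 were called higher in Krt19-high than in Krt19-low nodules. Against control liver, 4 were higher in adenomas, 5 higher and 1 lower in eHCC, and 4 higher in aHCC. Lum, of the stromal list, was detected in 0 arrays of Krt19-high nodules, adenomas and eHCC. The sum of 8 hepatocyte markers was 213000 to 295000 in Krt19-high nodules, 271000 to 316000 in Krt19-low nodules, 245000 to 271000 in adenomas, 198000 to 259000 in eHCC and 144000 to 265000 in aHCC, against 233000 to 314000 in control liver. Of these, 1 was called lower in Krt19-high than in Krt19-low nodules, and 2 in adenomas, 4 in eHCC and 4 in aHCC than in control liver. Of 4 Kupffer and macrophage markers, 1 was higher and 1 lower in Krt19-high than in Krt19-low nodules. Against control liver, 2 of them were lower in adenomas, 2 in eHCC and 1 in aHCC. Between the nodule sets, 0 of 2 endothelial markers were called, 1 of 4 lymphocyte markers was higher and 1 of 3 blood markers was lower. Among all features, 10.2% were called higher and 9.01% lower in Krt19-high than in Krt19-low nodules. Against control liver the shares were 13.5% higher and 12.6% lower in adenomas, 17% and 15.1% in eHCC, and 19.2% and 18.8% in aHCC. The part of these markers in the enzyme differences was not tested. In captured tissue, fewer cells of a type and less RNA per cell cannot be told apart.

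Between stages, eHCC and adenomas, both taken at 10 months, did not separate: 0 of the 7 enzymes were called, as were 0% of all features, and without adjustment no enzyme reached 0.05. The widest difference was that of Aldh3a1, 0.95 with a 95% interval of -0.34 to 2.24. In aHCC against Krt19-high nodules, 2 of the 7 were lower and 0 higher (24.3% of features called, 12.4% higher and 11.9% lower), Aldh3a2 at -1.28 ± 0.13 (2.42-fold, adjusted p = 1.51e-09) and Adh1 at -0.46 ± 0.16 (adjusted p = 0.0337). The Adh1 call was lost without any of 5 single arrays, with the largest shift without aHCC sample 29 (-0.35, adjusted p = 0.0799), and with number blocks as a random block (-0.49, adjusted p = 0.121). Aldh1a1 differed by -0.22 (95% interval -0.82 to 0.38), Aldh3a1 by -0.16 (-0.89 to 0.57) and Aox3 by -0.36 (-0.81 to 0.10). Of the 8 hepatocyte markers, 4 were called lower in aHCC than in Krt19-high nodules, and blood marker sums were 8020 to 49100 in aHCC, 2580 to 6910 in Krt19-high nodules and 12600 to 48300 in control liver. Their part in the aHCC differences was not tested.

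The order of mean levels was eHCC, adenoma, Krt19-high nodule, aHCC, Krt19-low nodule and control for Aldh1a1 and Aldh3a1. For Adh1 it was eHCC, Krt19-high nodule, adenoma, aHCC, Krt19-low nodule and control. For Aldh1a1 the neighbours eHCC and adenoma, and Krt19-high nodule and aHCC, were closer than the larger of their SDs. For Aldh3a1 so were adenoma and Krt19-high nodule, Krt19-high nodule and aHCC, and Krt19-low nodule and control. For Adh1 the first 3 groups were likewise within that spread of each other, as was each step from aHCC through Krt19-low nodule to control. For Aox3 the order from the lowest was eHCC, aHCC, adenoma, Krt19-high nodule, Krt19-low nodule and control, and only the last step, 2.44, exceeded the larger SD of the pair. For Aldh3a2 the step from eHCC to aHCC, 0.73, was wider than the larger SD, and the 3 highest groups were not separated.

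Other members of the aldehyde dehydrogenase family had small differences. The shares of all features called higher and lower than control apply to this list and the lists below. They were 17.4% and 17.2% in Krt19-high nodules, 5.28% and 5.07% in Krt19-low nodules, and 13.5% and 12.6% in adenomas. In eHCC they were 17% and 15.1%, and in aHCC 19.2% and 18.8%. A count near these shares is no result about a list. Of 15 other family genes listed, 9 were tested: 2 were lower in Krt19-high nodules, 0 were called in Krt19-low nodules, 1 was higher and 2 lower in adenomas, 1 higher and 3 lower in eHCC, and 2 higher and 3 lower in aHCC. Their median difference in aHCC was -0.08, against -0.01 over all features. In aHCC, Aldh9a1, an enzyme of carnitine and GABA synthesis, was lower at -0.75 ± 0.24 (adjusted p = 0.0115), and mitochondrial Aldh1b1 at -0.50 ± 0.12 (adjusted p = 0.000754). Aldh16a1 was higher there at 0.40 ± 0.11 (adjusted p = 0.00246). Aldh1a3, another retinal dehydrogenase, was higher in adenomas at 0.38 ± 0.12 (adjusted p = 0.0123) and in eHCC at 0.54 ± 0.11 (adjusted p = 0.000114), at levels near background (7.70 and 7.85).

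Among 5 tested genes of other alcohol and ethanol handling, of 10 listed, calls were all downward: 2 in Krt19-high nodules, 0 in Krt19-low, 2 in adenomas, 3 in eHCC and 3 in aHCC. The median difference of the 5 was -0.72 in eHCC and -0.98 in aHCC, against 0.00 and -0.01 over all features. Adhfe1, the iron-dependent hydroxyacid-oxoacid transhydrogenase, was lower at -1.36 ± 0.20 in Krt19-high nodules (adjusted p = 6.29e-07) and at -1.81 ± 0.26 in aHCC (adjusted p = 3.12e-07). Catalase (Cat), which can oxidise ethanol with hydrogen peroxide, was lower in aHCC at -1.31 ± 0.19 (adjusted p = 3.56e-07) and also against eHCC (-1.31 ± 0.23, adjusted p = 0.000102), but was at 0.31 in Krt19-high nodules (adjusted p = 0.203). Cyp2e1, the microsomal ethanol oxidase, was lower in eHCC at -2.39 ± 0.53 (adjusted p = 0.000388).

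Of 9 genes of the molybdenum enzymes and their cofactor, 7 were tested, and 2 were higher and 2 lower in adenomas, in eHCC and in aHCC. Krt19-high nodules had 2 higher and 3 lower, and Krt19-low nodules 1 of each. Their median stayed between -0.07 and -0.02 in the 5 lesion groups, close to that of all features. Besides Aox1, the gene of the cofactor sulfurase Mocos was higher, by 0.91 ± 0.16 in adenomas (adjusted p = 2.01e-05) and 0.75 ± 0.15 in eHCC (adjusted p = 6.73e-05). Gephyrin (Gphn), which inserts molybdenum into the cofactor, was lower at -1.01 ± 0.24 in eHCC (adjusted p = 0.000864) and -1.15 ± 0.20 in aHCC (adjusted p = 1.01e-05), and Mocs1, which acts early in cofactor synthesis, at -0.58 ± 0.10 in eHCC (adjusted p = 7.86e-06).

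Retinoid genes, the other side of the Aldh1a1 and Adh1 reactions, had more calls down than up. Of 20 listed, 14 were tested, with 1 higher and 6 lower in Krt19-high nodules, 0 and 2 in Krt19-low nodules, 3 and 5 in adenomas, 2 and 6 in eHCC, and 1 and 6 in aHCC. Their median was -0.28 in eHCC and in aHCC. Rdh7, a microsomal retinol dehydrogenase, was lower at -1.88 ± 0.24 in Krt19-high nodules (adjusted p = 1.44e-08) and -2.76 ± 0.39 in eHCC (adjusted p = 3.27e-07). Rbp4, the plasma retinol carrier, was lower at -1.29 ± 0.15 in Krt19-high nodules (adjusted p = 3.65e-09) and -1.68 ± 0.25 in eHCC (adjusted p = 1.10e-06). Cyp26b1, a retinoic acid hydroxylase, was higher in adenomas (1.51 ± 0.22, adjusted p = 2.01e-06) and eHCC (1.06 ± 0.21, adjusted p = 7.45e-05), and Cyp26a1, of the same activity, in aHCC (0.92 ± 0.20, adjusted p = 0.000305).

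**Figure D4:**
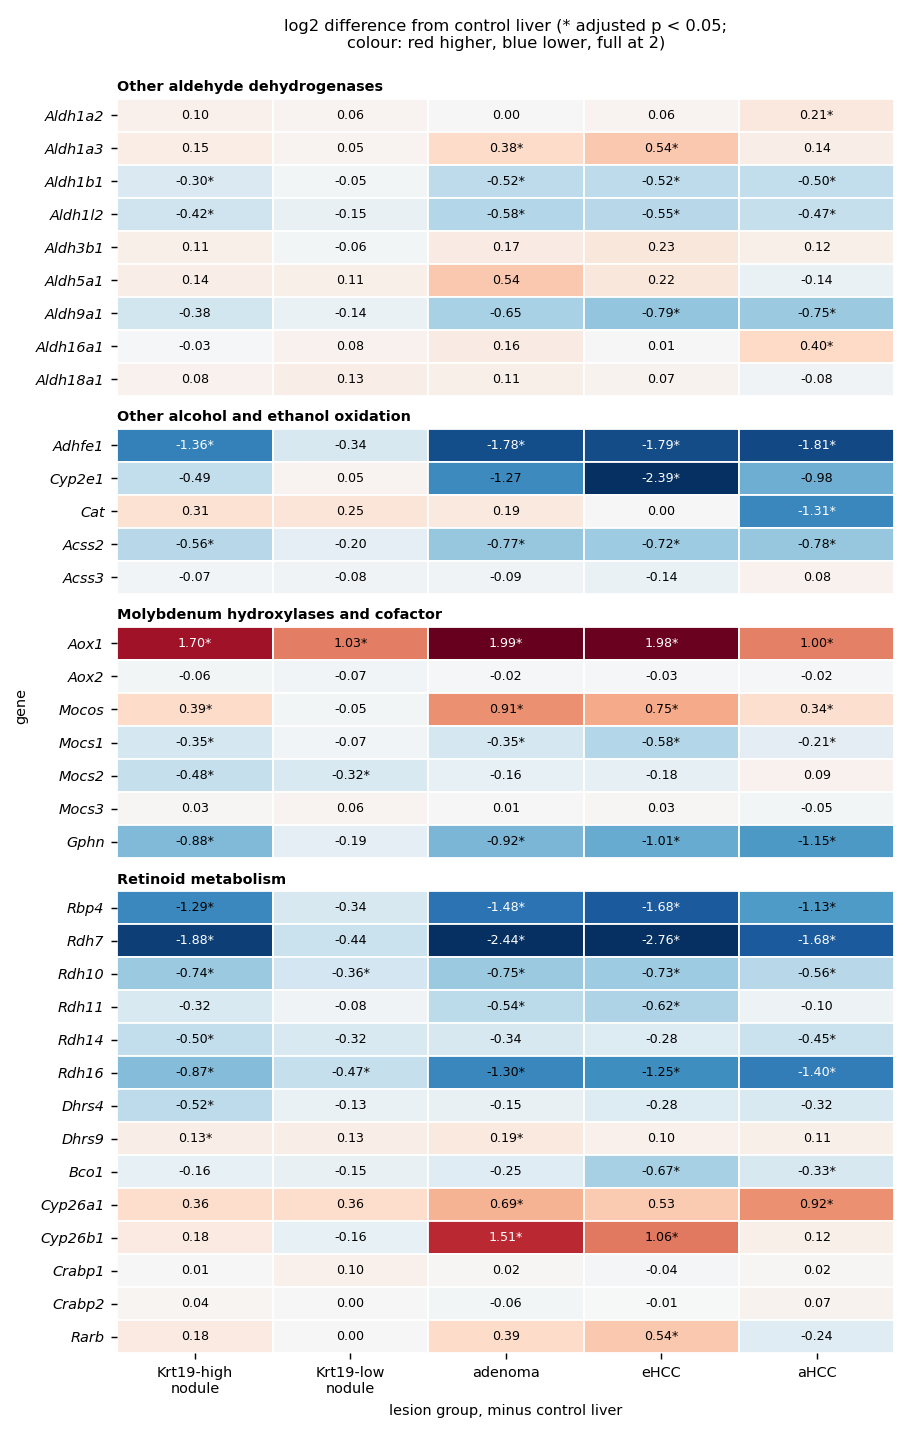
Log2 difference from control liver in 5 lesion groups (x axis) for other aldehyde dehydrogenases, other alcohol and ethanol oxidation genes, molybdenum enzyme genes and retinoid genes (y axis), printed in each cell, red for higher and blue for lower, with an asterisk at an adjusted p under 0.05. Aox1 is higher in all 5 groups, from 1.00 to 1.99, while Adhfe1, Rdh7, Rbp4 and Gphn are lower in 4 of them.

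In branched-chain amino acid catabolism, the pathway of Aldh6a1, 15 of 19 listed genes were tested, with 2 higher in Krt19-high nodules, adenomas, eHCC and aHCC, and 5, 5, 7 and 8 lower in these groups. Krt19-low nodules had 1 of each. The median was -0.35 in aHCC and -0.10 in eHCC. Hibch, which acts upstream of Aldh6a1 on valine, was higher by 1.16 ± 0.14 in Krt19-high nodules (adjusted p = 1.01e-08) and 1.68 ± 0.23 in adenomas (adjusted p = 3.60e-07). Pccb, a subunit of propionyl-CoA carboxylase, which takes up the product of Aldh6a1, was lower at -0.80 ± 0.09 in aHCC (adjusted p = 1.52e-09).

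Genes of the aryl hydrocarbon receptor battery, to which Aldh3a1 belongs in rodents, moved in both directions. Of 11 listed, 8 were tested: 4 were higher and 1 lower in Krt19-high nodules, 3 higher and 0 lower in Krt19-low nodules, 3 and 1 in adenomas, 3 and 1 in eHCC, and 2 and 2 in aHCC, with medians between 0.11 and 0.28. In eHCC, Nqo1 was higher by 4.65 ± 0.37 (adjusted p = 5.70e-13) and Ugt1a6, a glucuronosyltransferase, by 3.62 ± 0.45 (adjusted p = 3.50e-08), while Cyp1a2 was lower at -4.30 ± 0.56 (adjusted p = 7.47e-08). Cyp1a1, a common readout of this receptor, was named outside the rule used for the lists, after its values were seen. It was at 0.39 in Krt19-high nodules (adjusted p = 0.00817) and 0.00 in eHCC (adjusted p = 0.986). Ugt1a7c, also of the list, was at 1.85 (adjusted p = 1.49e-07) and 1.74 (adjusted p = 0.000214) in these groups. The part of the receptor in the Aldh3a1 difference was not tested.

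Of 8 sentinel genes of the oxidative stress factor NRF2, among them Nqo1, 7 were higher in each lesion group. Their median difference was 3.95 in Krt19-high nodules, 2.39 in Krt19-low nodules, 4.14 in adenomas, 4.05 in eHCC and 3.04 in aHCC. Gstp1, a glutathione transferase, was higher by 6.24 ± 0.34 in Krt19-high nodules (adjusted p = 1.34e-18) and Akr1b8, an aldo-keto reductase that reduces aldehydes, by 6.11 ± 0.35 (adjusted p = 3.89e-18). Nqo1 is in the receptor list too, so these lists overlap.

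Genes with zoned expression along the liver lobule were mostly lower. Of 10 listed, 9 were tested, with 6 lower in Krt19-high nodules, 1 higher and 1 lower in Krt19-low nodules, 8 lower in adenomas, 9 in eHCC and 7 in aHCC, and 0 higher in these 4 groups. Their median was -1.04 in Krt19-high nodules, 0.05 in Krt19-low nodules and -2.71 in eHCC. Around the central vein, Oat was lower at -2.53 ± 0.42 in aHCC (adjusted p = 4.91e-06), beside Cyp1a2. Around the portal tract, Sds was lower at -3.80 ± 0.60 in eHCC (adjusted p = 2.72e-06) and, in Krt19-low nodules, higher by 1.93 ± 0.43 (adjusted p = 0.00175).

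Over the 48 arrays, the genes most like each enzyme were found by Pearson's r of log2 intensity among 9262 named genes. The arrays share the stages, so these values describe the common profile. For Aldh1a1 they were Slc17a3 (r = 0.936), Ptgr1 (0.917) and Cidea (0.917), and for Aldh3a1 Msantd3 (0.881), Trpv4 (0.867) and Akr1c19 (0.863). For Aldh3a2 they were Sec16b (0.861), Tmbim6 (0.854) and Cat (0.852). For Adh1 they were Rcan2 (0.901), Tceal9 (0.899) and Prtfdc1 (0.898), and for Aox3 Olr59 (0.937), Or9s15 (0.935) and Or9s13 (0.929), all 3 olfactory receptor symbols of the array annotation. Adh4 (Akr7a2, 0.699) and Aldh6a1 (Trim2, 0.587) had no close match. Among the enzymes themselves, r was 0.863 between Aldh1a1 and Adh1, -0.898 between Aldh1a1 and Aox3, and -0.295 between Aldh3a1 and its neighbour Aldh3a2.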

How the data were processed

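Per the file headers, the deposited table gives an intensity beside a detection p-value, per array, for 22523 probes; BeadStudio 3.0.19.0 is named in the submitters' processing notes. Equal medians and a shared top value show that the deposited intensity is already normalized between arrays, with background not subtracted. The second deposited table is identical (largest difference 0). The design had foreseen raw values; log2 of the deposited intensity was used with no further step, and neqc became an alternative.

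Probes detected at p under 0.05 in at least 4 arrays were kept (13679), and the brightest probe per symbol gave 13479 features, of which 9273 were named genes. Of all probes, 13793 had 1 symbol, 0 had several and 8730 had none; 13752 gene identifiers matched RefSeq, and 0 symbols changed. Fits used limma 3.58.1 in R 4.3.3 (lmFit, eBayes), with the 6 groups of the titles in 1 model and the 4 nodule sets of 5 in another. Scripts were tested on simulated data. The 2-sided adjusted p is by Benjamini-Hochberg. Alternatives covered background, normalization, filter, probe, variance prior, array weights, blocks, control sets and single arrays.

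The enzymes, gene lists, markers and the nodule split were chosen with earlier results of these data known, and the biliary list without Krt19 was added after seeing the data. Of each list, at most the 2 largest rises and 2 largest falls per comparison were named, apart from Cyp1a1 and Ugt1a7c, and 3 genes for likeness.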

Additional observations from a re-analysis of the deposited data

Results flagged for a closer look

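Among 42 sets of 4 to 10 arrays (7 enzymes in 6 groups), 4 had a highest or lowest array whose gap to the rest passed Dixon's 95% limit; chance flags about 1 group in 20. In nodules labelled KRT19-negative, sample 8 had an Aldh1a1 level of 12.34, while the others were at 14.12 to 15.19, and an Aox3 level of 10.26, while the others were at 7.10 to 8.69. In eHCC, sample 44 had an Aox3 level of 7.83, the only eHCC with a detected signal, while the others were at 7.19 to 7.27. In aHCC, sample 29 had an Adh4 level of 7.57, while the others were at 8.60 to 9.22.

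For 4 of the 7 enzymes the KRT19-positive minus KRT19-negative difference was not the same in samples 1 to 10 as in 15 to 24. It was tested in the nodules as an interaction in limma, which called 19.2% of all features. The label difference of Aldh1a1 was 1.09 and -0.90, an interaction of 1.99 ± 0.58 (SE, adjusted p = 0.0118). For Aldh3a1 it was 2.03 and -1.39, an interaction of 3.42 ± 0.70 (adjusted p = 0.000375). Adh1 gave 1.12 and -0.82, an interaction of 1.94 ± 0.32 (adjusted p = 1.78e-05), and Aox3 -0.93 and 0.65, an interaction of -1.58 ± 0.44 (adjusted p = 0.00825). It is the contrast reported as Krt19-high against Krt19-low, doubled.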

How the results depend on the processing

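No paired analysis was possible because the sample numbers in the titles run from 1 to 48 and no number is shared between groups. Some alternatives kept all single arrays or left out a whole set. Over these, 1147 values of single enzymes kept their side of the threshold, 14 lost a call, 27 gained one and 2 reversed. A reversal was counted only where the value was called in the main fit or the alternative. Uncalled values that changed sign therefore count as kept. When single arrays were left out, 1578 were kept in this sense, 24 lost a call, 8 gained one and 0 reversed. An example is Adh4 in adenomas against control, at -0.08 with all arrays and between -0.17 and 0.07 without single arrays. The reversed values were those of Adh4 within number ranges: -0.71 for nodules labelled KRT19-negative within samples 15 to 27 (adjusted p = 0.00503) and 0.39 for Krt19-high nodules within samples 1 to 14 (adjusted p = 0.0365). The number of enzymes called moved by more than 1.5 times in these cases. Against control within samples 15 to 27 it was 2 in place of 4 for nodules labelled KRT19-positive and 6 in place of 3 for those labelled KRT19-negative. Between aHCC and eHCC it was 2 with an intensity trend, 3 with array weights, 2 with the 4 nodule sets in the model and 2 within samples 28 to 48, in place of 1, and 1 to 2 when single arrays were left out. Between labels in samples 15 to 24 it was 2 with neqc and 5 with array weights, in place of 1, and 0 to 1 without single arrays. Between aHCC and Krt19-high nodules it was 1 without the detection filter and 1 with number blocks as a random block, in place of 2, and 1 to 2 without single arrays. The cause of these moves was not tested. Shares of all features called in these alternative fits are not given here, so the counts cannot be set against them. The Aldh3a1 call in nodules labelled KRT19-positive was lost without each control set (adjusted p of 0.0618 to 0.0836), without sample 1 (0.0700) and without sample 2 (0.0811). Signal limits both ends: background compresses Aldh3a1, Aldh6a1 and Aox3, and the top of the scale compresses Aldh1a1 and Adh1.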
